A study of Oryza sativa with 6 samples.

Results

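WRKY transcription factor genes of rice were followed in seedlings treated with auxin, cytokinin or solvent. Members were the genes whose symbol or synonym in a RefSeq gene table, with a leading Os dropped, is WRKY followed by a number. The rule found 6 genes, all of them on the array, among 17905 genes that a probe set could be tied to. They were WRKY24 (LOC4327518), WRKY71 (LOC4328512), WRKY51 (LOC4335388), WRKY9 (LOC4343736), WRKY76 (LOC4347069) and WRKY62 (LOC4347070). The rice WRKY family is larger than this, and genes that the table does not name as WRKY are not analysed here. WRKY71 had 2 probe sets and each of the other genes had 1, which makes 7 probe sets in all, and the brighter probe set stood for WRKY71.

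Seedlings of the indica variety IR64 were 7 days old and grown in the light. One group was kept in 50 µM indole-3-acetic acid (IAA, the main natural auxin) and another in 50 µM benzyl aminopurine (BAP, a synthetic cytokinin), while controls were mock-treated with 0.1% dimethyl sulfoxide. Material collected at 1 h and at 3 h was pooled in equal amounts before RNA isolation in every group, so a rise at one time and a fall at the other would average out. Each group held 2 samples that the series design calls biological replicates, each on its own Affymetrix rice array.

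WRKY proteins are plant transcription factors with a conserved WRKY domain and a zinc finger, and they bind the W box, a short DNA element with the core TTGAC. Many of them are switched on by pathogen signals and act for or against defence, often under MAP kinase control. Some act in hormone signalling in the aleurone of the seed, the cell layer that releases starch-degrading enzymes. There WRKY71 represses gibberellin-induced genes, WRKY51 acts with it, and WRKY24 represses gibberellin and abscisic acid responses. WRKY62 and WRKY76 belong to one subgroup of the family and are known as negative regulators of disease resistance in rice. WRKY62 is also called XB10 because its protein binds the immune receptor XA21. No role is given here for WRKY9.

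WRKY76 and WRKY62 are direct neighbours on chromosome 9, with 0 genes between them in the RefSeq table of a japonica assembly. The other members lie on chromosomes 1 (WRKY24), 2 (WRKY71), 4 (WRKY51) and 7 (WRKY9). All 6 genes were bright enough to be tested. The lowest mean intensity among them was 70.2, for WRKY62, against 9.94 at the brightness limit. Intensities below are quantile-normalized, and the brightness of different probe sets is not compared.

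Over all 6 arrays, 34316 probe sets were tested. Pairs of arrays correlated at 0.975 to 0.988 across these probe sets, and BAP array 1 was closer to either control array (0.985 and 0.984) than to its own replicate (0.983). The BAP arrays had a scan day of their own, with control and IAA arrays sharing another, so BAP and scan day cannot be told apart. Fluidics modules 1 and 2 held the control arrays and modules 3 and 4 the arrays of either hormone. Against the control, module and hormone thus cannot be told apart either, whereas IAA and BAP shared their modules. The 2 arrays of each group were on different modules. Markers of both organs of a seedling were looked up. The shoot markers CAB2R, for a chlorophyll-binding protein, and rbcS, for the small subunit of Rubisco, read between 4449 and 9015 on every array. All 8 measured root markers passed the brightness limit. Lsi1, a silicon channel gene of the root, read 1868 to 3744, whereas SHR1 and PHT1-2 were dim, at 38.8 and 43.1 on their lowest arrays.

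The first question was which WRKY genes differed between IAA and control. WRKY24, WRKY71 and WRKY51 had both IAA arrays above both control arrays, by 1.25-fold to 1.56-fold on the log2(intensity + 16) scale of the fit. Arrays of WRKY62, WRKY76 and WRKY9 overlapped. None of these differences passed the test over all probe sets (limma, Benjamini-Hochberg adjusted p under 0.05). Of the 6 genes, 0 were called, where 0.851% of all tested probe sets were called. At an unadjusted p under 0.05 in limma, 3 of the 6 were higher with IAA and 0 lower, against 5.25% and 5.6% of all tested probe sets. Arrays separated upwards for 3 of 6 genes, against 21.1% of all probe sets, and downwards for 0 of 6, against 22.9%. The median log2 change was 0.14 over the 6 genes and -0.01 over all tested probe sets.

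WRKY24 had the largest difference of the 6 with IAA. Its intensity was 88.4 and 107 on the control arrays, 148 and 175 on the IAA arrays, and 135 and 146 on the BAP arrays. The control arrays were the lowest of the 6 and the IAA arrays the highest. The mean was 97.6 ± 13.1 in the control and 162 ± 19.0 with IAA (SD, n = 2 arrays each), a log2 change of 0.65 (SE 0.16, 95% interval 0.28 to 1.02, limma adjusted p = 0.153). The change exceeded that of 97.7% of all tested probe sets.

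WRKY71 read 603 and 705 on the control arrays, 884 and 762 on the IAA arrays, and 848 and 788 on the BAP arrays. All hormone arrays lay above both control arrays. The log2 change with IAA was 0.32 (SE 0.13, 95% interval 0.04 to 0.61, limma adjusted p = 0.392). Its second, dimmer probe set read 143 and 175 in the control, 222 and 281 with IAA, and 247 and 210 with BAP. That probe set gave the same separation and a larger log2 change with IAA, 0.61 (SE 0.17, limma adjusted p = 0.198). Both probe sets of WRKY71 thus had the same direction, and neither passed the test.

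WRKY51, whose product works together with that of WRKY71 in aleurone cells, read 104 and 121 in the control, 164 and 139 with IAA, and 115 and 114 with BAP. Only its IAA arrays stood above the rest, and the BAP arrays lay within the control range. The log2 change with IAA was 0.38 (SE 0.16, 95% interval 0.02 to 0.74, limma adjusted p = 0.429). In the deposited intensities, before any rescaling between arrays, both IAA arrays of WRKY24, WRKY71 and WRKY51 also lay above both control arrays.

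**Figure D1:**
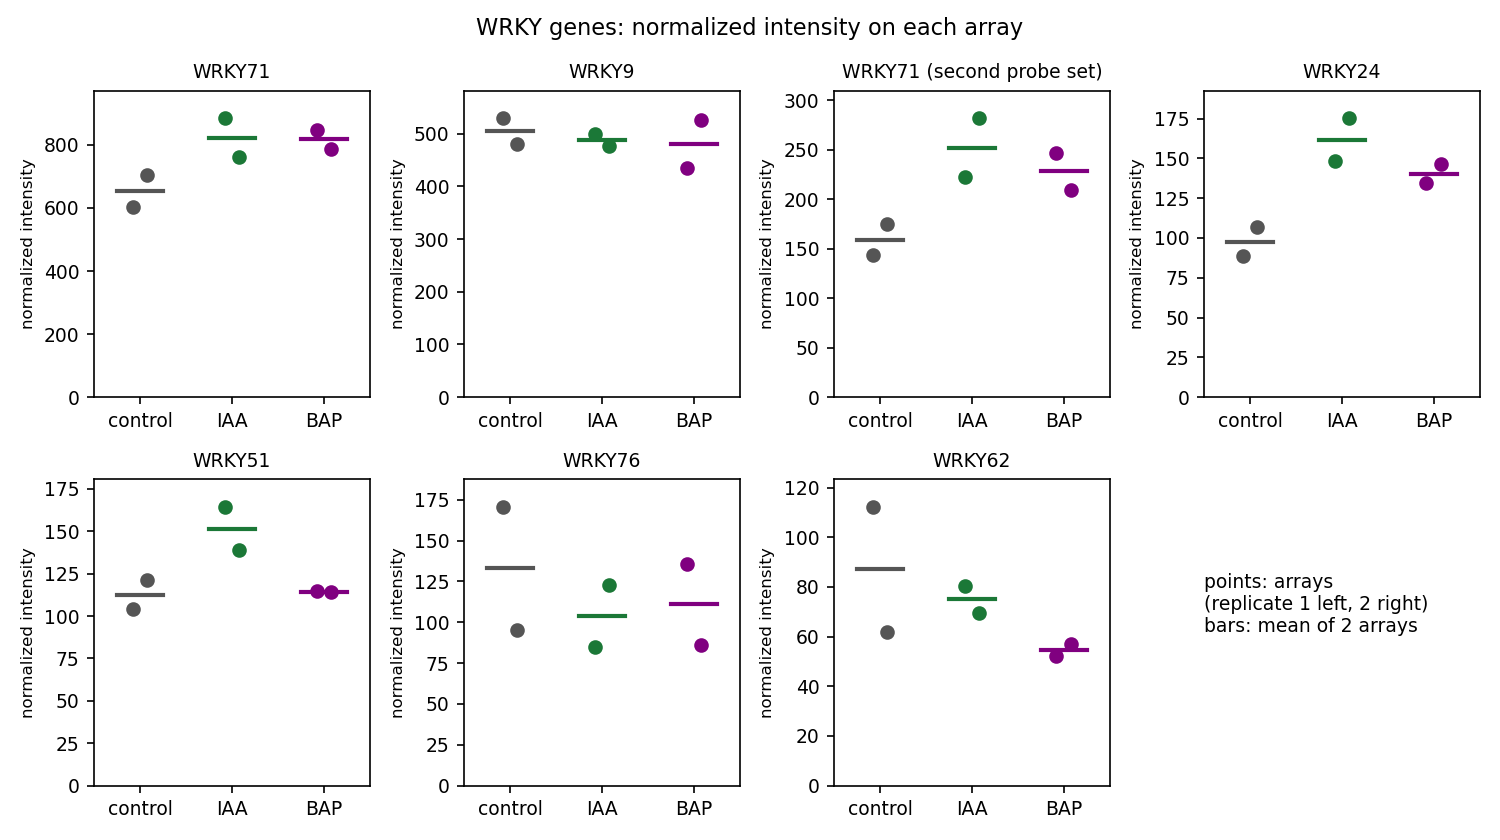
Normalized intensity (linear axis from 0, one scale per panel) of each WRKY probe set on the 2 control, 2 IAA and 2 BAP arrays, with points for arrays and bars for means of 2. WRKY24, both probe sets of WRKY71 and WRKY51 have their IAA points above their control points, whereas the control points of WRKY76 and WRKY62 lie far apart.

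The other members gave no separation with IAA. WRKY9 read 529 and 481 in the control, 499 and 476 with IAA, and 435 and 526 with BAP. These arrays overlapped in all 3 comparisons, and the log2 change with IAA was -0.05 (SE 0.13, 95% interval -0.35 to 0.25, limma adjusted p = 0.938). For WRKY76 the log2 change was -0.28 (SE 0.29, 95% interval -0.93 to 0.36, limma adjusted p = 0.798) and for WRKY62 it was -0.14 (SE 0.24, 95% interval -0.68 to 0.40, limma adjusted p = 0.898). The intervals of WRKY76 and WRKY62 are wide and include decreases as large as the difference seen for WRKY24.

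The second question was which WRKY genes differed between BAP and control. WRKY24 and WRKY71 had both BAP arrays above both control arrays, as they had with IAA, and WRKY62 had both below. Of the 6 genes, 0 were called in limma, against 0.274% of all tested probe sets, and at an unadjusted p under 0.05 2 were higher and 0 lower, against 4.09% and 3.48%. Arrays separated upwards for 2 of 6 genes and downwards for 1, against 17.8% and 19.9% of all probe sets. The median log2 change was -0.03 over the 6 genes and -0.01 over all tested probe sets. Both comparisons use the same control arrays, so a shared direction is not independent evidence.

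The mean of WRKY24 was 140 ± 8.11 with BAP (SD, n = 2 arrays), a log2 change of 0.47 from the control (SE 0.16, 95% interval 0.10 to 0.83, limma adjusted p = 0.491). WRKY71 had a log2 change of 0.32 (SE 0.13, 95% interval 0.03 to 0.61, limma adjusted p = 0.595), and its second probe set 0.48 (SE 0.17, limma adjusted p = 0.497). WRKY51 differed by 0.02 (SE 0.16, 95% interval -0.34 to 0.38, limma adjusted p = 0.99), WRKY9 by -0.07 (SE 0.13, limma adjusted p = 0.962) and WRKY76 by -0.21 (SE 0.29, limma adjusted p = 0.945).

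WRKY62 read 112 and 61.8 on the control arrays, 80.3 and 69.6 on the IAA arrays, and 52.1 and 57.0 on the BAP arrays. The BAP arrays were the lowest of the 6, but control array 2 lay close above them. The log2 change with BAP was -0.50 (SE 0.24, 95% interval -1.04 to 0.04, limma adjusted p = 0.711), lower than for all but 3.05% of tested probe sets. Without control array 1 it was -0.14, and without control array 2 it was -0.86. In the deposited intensities BAP array 2 of WRKY62 (61.6) lay above control array 2 (59), so the separation from the control held only after rescaling between arrays.

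Some root markers also read lower on the BAP arrays, with a median log2 change of -0.56 over the 8. Their summed intensity, most of it from Lsi1, over the 8 genes was 5848 and 6039 on the control arrays, 4339 and 4551 on the IAA arrays, and 2948 and 3116 on the BAP arrays. In limma 2 of the 8 fell with BAP (0.0641% of all tested probe sets did), Lsi1 and Lsi2, which encode the channel and the efflux transporter of silicon uptake. Another 2 of the 8, CASP1 at 0.01 and SCR1 at 0.17 on the log2 scale, had values above 0, and both BAP arrays of SCR1 (80.0 and 84.3) lay above both control arrays (77.7 and 65.0). The sum of the 2 measured shoot markers was 13029 to 13622 over all arrays. In whole seedlings, fewer cells of a type and less RNA per cell cannot be told apart, and the part of organ proportions in the WRKY values was not tested.

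**Figure D2:**
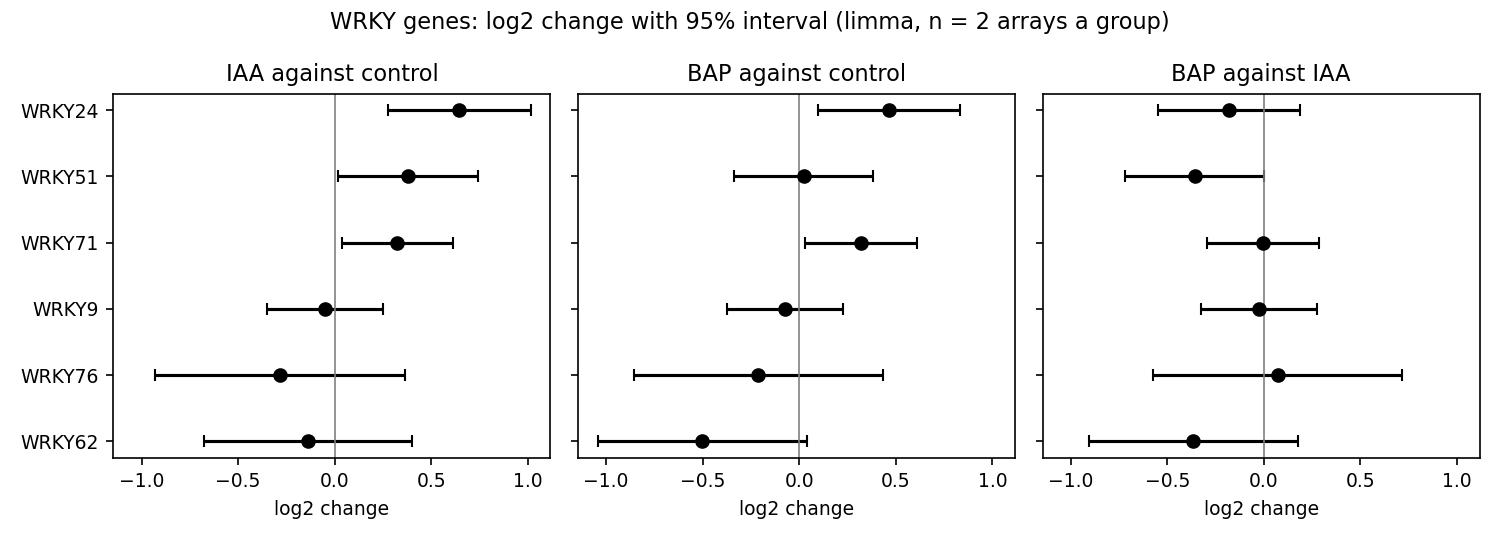
Log2 change of each WRKY gene (x axis) in the 3 comparisons, as points with 95% intervals from the limma fit, n = 2 arrays a group. For IAA against control the intervals of WRKY24, WRKY51 and WRKY71 lie above 0, and for BAP against control those of WRKY24 and WRKY71, before adjustment over all probe sets.

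The third question was whether the hormones differed from each other. Of the 6 genes, 0 were called between BAP and IAA in limma, against 2.24% of all tested probe sets, and 0 had an unadjusted p under 0.05, against 12.7%. WRKY51, WRKY62 and WRKY24 had both BAP arrays below both IAA arrays, 3 of 6 against 19.5% of all probe sets. WRKY51 differed by -0.36 (SE 0.16, 95% interval -0.72 to 0.00, limma adjusted p = 0.399) and WRKY62 by -0.36 (SE 0.24, limma adjusted p = 0.607). For WRKY24 the difference was -0.18 (SE 0.16, limma adjusted p = 0.737). For WRKY71 it was -0.01 (95% interval -0.30 to 0.28, limma adjusted p = 0.992). An adjusted p that misses the threshold does not show that the hormones act alike on it. The separation of WRKY24 between hormones was absent in the deposited intensities, where its IAA arrays read 127 and 187 and its BAP arrays 134 and 152. The unequal scan days apply to this comparison as well.

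WRKY76 and WRKY62 varied most between the 2 control arrays. WRKY76 read 171 and 95.3 in the control, 85.1 and 123 with IAA, and 136 and 86.3 with BAP. Control array 1 was the highest of the 6 for both genes. The log2 difference between the control arrays was 0.75 for WRKY76 and 0.72 for WRKY62, larger than for 96.9% and 96.5% of all tested probe sets. It was between -0.23 and 0.13 for the other 4 genes, and the median size over all tested probe sets was 0.14. Between the IAA arrays the log2 difference was -0.46 for WRKY76 and 0.17 for WRKY62, and between the BAP arrays 0.57 and -0.10, so the neighbours did not move together there.

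With control array 1 left out, the log2 change with IAA became 0.09 for WRKY76 and 0.22 for WRKY62. With control array 2 left out it became -0.66 and -0.50. The direction of both genes against the control under IAA therefore depended on which control array was used, and so did that of WRKY76 under BAP, at 0.16 and -0.59. WRKY24 stayed between 0.53 and 0.77 with IAA and between 0.35 and 0.58 with BAP as either control array was left out. WRKY71 stayed between 0.22 and 0.44 with IAA and between 0.21 and 0.43 with BAP. Values of WRKY9 with IAA (0.02 and -0.12) and of WRKY51 with BAP (-0.07 and 0.12) also crossed 0, without control array 1 and 2 in turn.

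**Figure D3:**
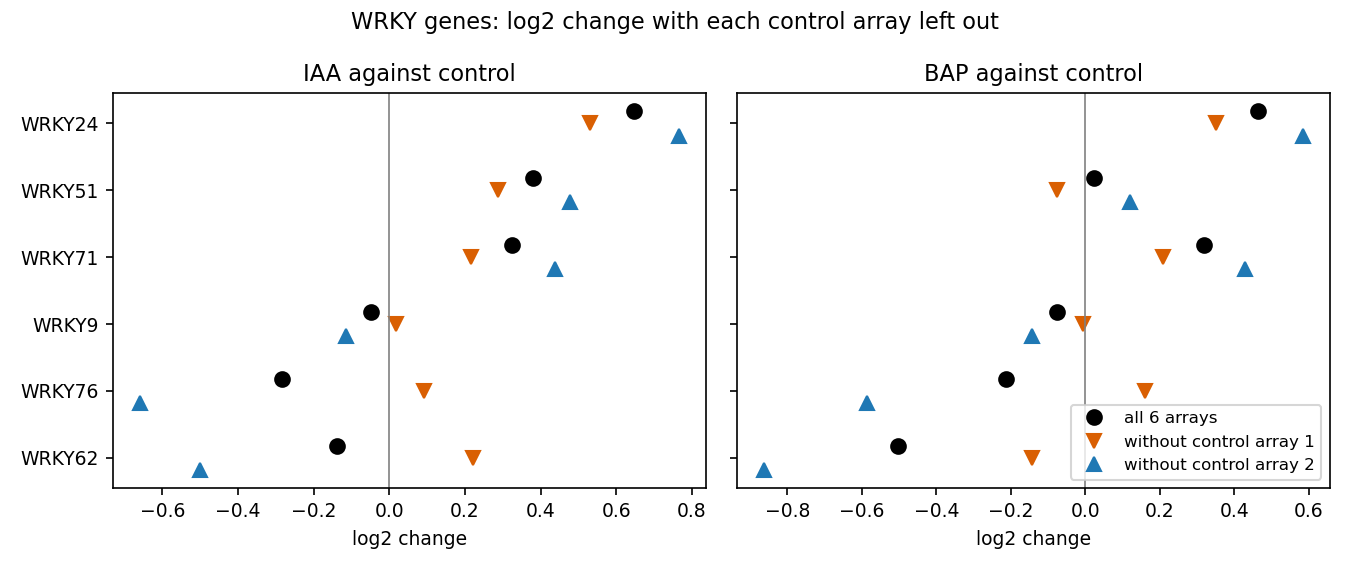
Log2 change of each WRKY gene (x axis) against the control with all 6 arrays (circles), without control array 1 (downward triangles) and without control array 2 (upward triangles). Values of WRKY24 and WRKY71 stay above 0. Those of WRKY76 cross 0 with either hormone, those of WRKY62 and WRKY9 with IAA, and those of WRKY51 with BAP.

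Genes that act with WRKY factors in rice defence were set beside them. Diterpenoid phytoalexins are antimicrobial compounds whose synthesis genes are induced by pathogens, and WRKY76 and WRKY62 are known to act on that pathway. On control array 1, 10 of 15 tested phytoalexin genes had their highest value of the 6 arrays, as WRKY76 and WRKY62 had, where 13.3% of all tested probe sets were highest on that array. The array was singled out after the values of this WRKY pair were seen. Between the control arrays 13 of the 15 were higher on array 1, with a median log2 difference of 0.63, where 48.9% of all tested probe sets were higher. CPS2, for a diterpene cyclase at the entry to phytocassane synthesis, read 844 and 575 in the control, 404 and 366 with IAA, and 747 and 779 with BAP.

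The WRKY pair lay close to the median of the phytoalexin genes on the control arrays, though single phytoalexin genes spread widely. On each of the other arrays at least 1 of the pair lay on the other side of 0 from that median. As log2 deviations from the 6-array mean, the median phytoalexin gene lay at 0.51 on control array 1, beside 0.54 for WRKY76 and 0.57 for WRKY62, and at -0.18 on control array 2, beside -0.21 and -0.15. On IAA array 1 the median was -0.30, with WRKY76 at -0.35 and WRKY62 at 0.16, and on IAA array 2 it was -0.21, with 0.11 and -0.01. On BAP array 1 it was -0.07, with WRKY76 at 0.24 and WRKY62 at -0.34, so the pair itself lay on either side. On BAP array 2 the median was 0.33, with both WRKY genes below 0, at -0.33 and -0.24.

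In limma 0 of the 15 phytoalexin genes passed for IAA against control, where 0.851% of all tested probe sets were called. The median log2 change of the 15 was -0.52, and 4 were lower at an unadjusted p under 0.05, against 5.6% of all tested probe sets. For BAP against control 0 passed, where 0.274% of all tested probe sets were called. The median of the 15 was 0.05, and 0 had an unadjusted p under 0.05. Of all tested probe sets, 4.09% were higher and 3.48% lower at that p. Between BAP and IAA all 15 log2 values were above 0, with a median of 0.40. The median over all tested probe sets was -0.00014. The 15 values come from the same arrays, so their shared sign is not independent evidence. At an unadjusted p under 0.05 in limma, 3 were higher and 0 lower, against 12.7% of all tested probe sets in either direction. After adjustment 1 gene passed, CPS2 at 0.96 (SE 0.17, limma adjusted p = 0.0238), where 1.11% of all probe sets were called higher. The high values on control array 1 enter the log2 changes of the first 2 comparisons and not those of the last. Through the spread shared by all 6 arrays they enter the SE and p-values of all 3 comparisons. The comparison of BAP with IAA has limits of its own. The phytoalexin median deviated by -0.07 on BAP array 1 and 0.33 on BAP array 2, and BAP cannot be told apart from scan day.

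**Figure D4:**
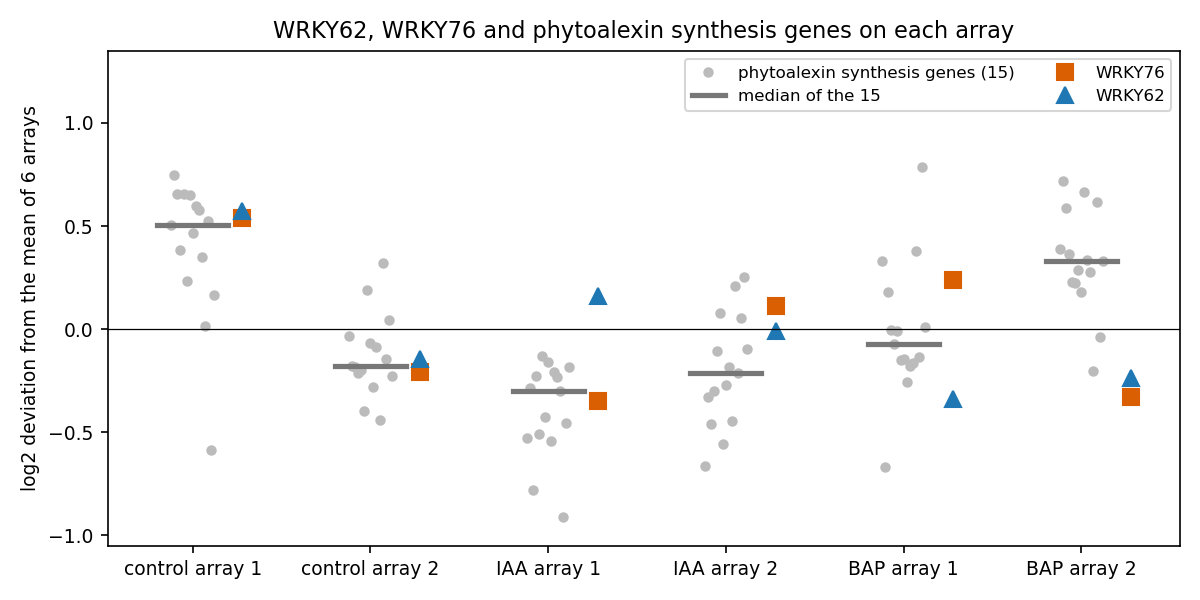
Log2 deviation of each array from the mean of the 6 arrays (y axis) for 15 phytoalexin synthesis genes (grey points, bar for their median), WRKY76 (squares) and WRKY62 (triangles). On control array 1 both WRKY genes and the phytoalexin median lie near 0.5, and on BAP array 2 the median is at 0.33 with both WRKY genes below 0.

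Upstream signalling genes stayed without calls. Of all tested probe sets, 0.851% were called for IAA and 0.274% for BAP against control, and 2.24% between BAP and IAA. Kinases of the MAP kinase cascade can phosphorylate WRKY factors, and 17 genes matched by its names were tested. Among them is MEK1 (LOC4343678), which also carries the name WNK1, so its place in the cascade is not certain. Of the 17, 0 passed in any of the 3 comparisons in limma. At an unadjusted p under 0.05, 2 were higher with IAA, 1 was higher with BAP and 1 was lower with BAP than with IAA, against 5.25%, 4.09% and 6.16% of all tested probe sets, so the counts were near the background. Their medians were 0.04 for IAA and -0.03 for BAP on the log2 scale. Of 8 receptors of chitin and bacterial patterns and their partners, 0 passed and 0 had an unadjusted p under 0.05 in any comparison. Of all tested probe sets, 5.25% were higher and 5.6% lower at that p with IAA, and 4.09% and 3.48% with BAP. Between BAP and IAA 12.7% had such a p in either direction. A count of 0 among 8 genes lies near these shares.

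Other defence genes held few calls, where 0.851% of all tested probe sets were called for IAA and 0.274% for BAP against control. Of 10 genes of the salicylic acid branch, 0 passed against the control, with median log2 changes of 0.07 for IAA and -0.02 for BAP. At an unadjusted p under 0.05, 2 were higher and 1 lower with IAA, and 1 was higher with BAP, against 5.25%, 5.6% and 4.09% of all tested probe sets. Between hormones 1 passed, NH2, a relative of the salicylic acid co-activator NH1, at -0.48 (SE 0.10, limma adjusted p = 0.0464), where 1.13% of all probe sets were called lower. Among 11 genes matched by the names of pathogenesis-related proteins and chitinases, NH1 among them through its synonym PR2, 0 passed against the control. Of the 11, 4 were lower with IAA and 3 higher with BAP at an unadjusted p under 0.05, against 5.6% and 4.09% of all tested probe sets. Their median log2 change was -0.23 with IAA and 0.15 with BAP, and the chitinase gene Cht2 (LOC4349267) was higher with BAP than with IAA by 0.61 (SE 0.12, limma adjusted p = 0.0387; 1.11% of all probe sets were called higher). Among 14 genes matched by the names of jasmonate synthesis, OPR1 (LOC4340490), of the 12-oxophytodienoate reductase family, rose with IAA by 1.78 (SE 0.15, limma adjusted p = 0.00108; 0.632% of all probe sets rose), and was lower with BAP than with IAA by a log2 difference of -2.07 (limma adjusted p = 0.000243). At an unadjusted p under 0.05 with IAA, 2 of the 14 were higher, against 5.25% of all tested probe sets, and 4 were lower, against 5.6%: AOS4, LOX3, LOX8 and LOX9, named for allene oxide synthase and lipoxygenase, at -0.42 to -0.65 on the log2 scale. For BAP against control 0 of the 14 passed and 0 had an unadjusted p under 0.05. Of all tested probe sets, 4.09% were higher and 3.48% lower at that p. The median log2 change of the 14 was -0.10 for IAA and -0.13 for BAP.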

How the data were processed

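The deposited table holds linear intensity values, 1 for each probe set on each array; the scanner software, background correction and summary method are not given in the sources used here. Of 57381 probe sets, 187 array controls were dropped. The scale was log2(intensity + 16), on which changes of dim genes are understated. Array medians then differed by up to 0.262, so the arrays were quantile normalized, and target probe sets under the 40th percentile of mean log2 value were dropped (22878 of them). Printed intensities have the 16 subtracted again. Group means were fitted over all 6 arrays with limma 3.58.1 in R 4.3.3 (intensity-dependent empirical Bayes spread, 3 residual degrees of freedom), with two-sided p adjusted over 34316 probe sets. The number of arrays limits the precision. The fit was tested on simulated data for IAA against control. It called 7 of 70 probe sets given a log2 change of 0.5 in size, so most of these were missed. Of those given a change of 1 it called 42 of 69, and of those given 2 it called 59 of 61. Among unchanged probe sets it called 10 of 34116. Tables were read and plotted in Python 3.11.15 with matplotlib 3.10.9 and pandas 2.3.3.

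Names came from the platform annotation, joined by gene number to RefSeq's gene table for a japonica assembly (22436 probe sets matched). A gene was represented by its brightest probe set. Probes of near-identical copies can share signal. Scan day and fluidics module came from the scanner's experiment files, per the file headers. Members, gene lists and tests were chosen with earlier results of these data known. Lists matched names in the table, and 1 gene, NH1, stood in both the salicylic acid list and that of pathogenesis-related proteins. The actin gene RAc1, met by the case-blind match for the GTPase gene Rac1, was left out. By the naming rule every WRKY gene was named, as were list genes past the threshold. Same-numbered arrays of different groups did not deviate together (correlations of 0.02, 0.03 and -0.06), and the replicate number was not used in the fit. Alternatives were other scalings, pseudocounts of 1 and 64, other brightness filters, a constant spread, only the groups compared, the replicate block, each array left out and the mean of a gene's probe sets.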

Additional observations from a re-analysis of the deposited data

How the results depend on the processing

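Under the 16 other settings, 0 WRKY genes passed the threshold in each of 48 counts, and no median over the 6 genes moved by more than the spread between arrays of a group (0.106 on the log2 scale). Medians ranged from 0.07 to 0.22 for IAA against control, -0.07 to 0.08 for BAP against control and -0.20 to -0.04 for BAP against IAA. The lowest adjusted p of any gene was 0.107, for WRKY24 with IAA, whose adjusted p ranged up to 0.737. With the replicate block the count stayed 0 in each comparison and WRKY24 had an adjusted p of 0.144 with IAA; the arrays share only a number.

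Of 288 single-gene values, 17 had the other sign, none of them called, and the cause was not tested. Without rescaling these were WRKY51 for BAP against control (-0.0037), WRKY71 (0.0398) and WRKY9 (0.0332) for BAP against IAA, and with median centring WRKY51 for BAP against control (-0.0324). The other 13 came with an array left out. Over the arrays left out, values for IAA against control ranged from -0.12 to 0.0184 for WRKY9, -0.66 to 0.0907 for WRKY76 and -0.50 to 0.22 for WRKY62. For BAP against control they ranged from -0.0746 to 0.12 for WRKY51, -0.59 to 0.16 for WRKY76 and -0.21 to 0.0597 for WRKY9. For BAP against IAA they ranged from -0.11 to 0.10 for WRKY71, -0.16 to 0.11 for WRKY9 and -0.21 to 0.36 for WRKY76.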
